A study of Mus musculus with 12 samples.

Results

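The 10 genes described here encode chaperones of the endoplasmic reticulum (ER) and proteins of the unfolded protein response (UPR): Hspa5, Hsp90b1, Calr, Pdia4, Dnajb9, Sdf2l1, Creld2, Manf, Herpud1 and Xbp1. They were chosen by name, with earlier results of these data known, from the 33615 gene symbols of the deposited table, where they held 38 of the 104952 transcript entries. All 10 passed the filter on low counts, as did 15952 genes in all. They were followed by bulk RNA sequencing of mouse heart tissue in 12 libraries, 4 in each of 3 groups. Hearts of the first group went through 30 min of ischemia and 2 h of reperfusion with ML264, an inhibitor of the transcription factor KLF5, on top of the injury (I/R + ML264). The second group had the same ischemia and reperfusion without the inhibitor (I/R), and the third a sham operation with the same 2 h label (Sham). The labels name no strain, age, sex, vehicle or dosing schedule for ML264, and do not say whether each library came from its own animal. The p-values below therefore measure the spread between libraries, which may in part be technical.

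Proteins that enter the ER are folded there by chaperones and by enzymes that form and rearrange disulfide bonds. When unfolded proteins build up, the membrane sensors IRE1, PERK and ATF6 are activated. IRE1 splices the Xbp1 mRNA, ATF6 is cut to release a transcription factor, and PERK slows translation and favours ATF4. The resulting factors raise transcription of chaperones and of the machinery that removes misfolded proteins from the ER for degradation. In heart muscle, ER stress is a known accompaniment of ischemia and reperfusion, and the ER chaperone calreticulin also binds calcium.

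ATF6 and XBP1 act at 2 known sequence elements. The ER stress response element (ERSE) reads CCAAT, then any 9 bases, then CCACG, and ERSE-II reads ATTGG, then any 1 base, then CCACG. Both were searched on both strands in the 250 bases upstream of the RefSeq gene start (GRCm38.p6), which were at hand for 9 of the 10 genes. Every exact match is shown here, 5′ to 3′ on the strand of the gene, because these elements are known from UPR target genes. Capitals mark the CCAAT and CCACG parts or their reverse complements.
Hspa5, ERSE: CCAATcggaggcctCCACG
Hsp90b1, distal ERSE: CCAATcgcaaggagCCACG
Hsp90b1, proximal ERSE, reverse strand: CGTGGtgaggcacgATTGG
Creld2, ERSE, reverse strand: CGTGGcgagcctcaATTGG
Calr, ERSE, reverse strand: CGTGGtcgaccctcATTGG
Herpud1, ERSE-II: ATTGGgCCACG
The first base of the Hspa5 element lies at -65 from the gene start, and that of the Herpud1 element at -52. In the same sense, the Hsp90b1 elements begin at -212 and -107, the Creld2 element at -126 and the Calr element at -162. Exact ERSE matches were thus found in 4 of 9 genes, against 0.113% of 32851 RefSeq upstream windows of the same length. An ERSE-II match was found in Herpud1 alone among the 9, and in 0.0304% of all windows. With at most 1 mismatch in the fixed letters, Pdia4 joined the ERSE group, making 5 of 9 genes against 1.32% of windows. TGACGTGG, the core of a UPR element bound by XBP1, was found in 0 of 9 and in 0.563% of windows. Only this exact form was searched, and the Hspa5 window holds a stretch that differs from it in the last base alone. The parts alone are common, with CCAAT in 33.8% and CCACG in 28.3% of windows. A match describes the letters of the window and does not show that a factor binds there. Since the elements are known from UPR target genes and the members are UPR genes, these shares do not test enrichment.

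The 250-base windows of Hspa5 and Herpud1 are printed whole, as the classical ERSE gene and as the gene with ERSE-II whose RNA varied most among the well-counted members. Capitals mark the exact ERSE and ERSE-II matches.
Hspa5, chr2:34771840-34772089, plus strand, GRCm38.p6: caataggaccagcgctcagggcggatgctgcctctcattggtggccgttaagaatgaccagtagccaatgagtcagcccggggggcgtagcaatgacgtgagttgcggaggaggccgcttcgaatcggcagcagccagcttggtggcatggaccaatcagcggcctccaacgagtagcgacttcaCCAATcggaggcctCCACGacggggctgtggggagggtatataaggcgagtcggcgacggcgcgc
Herpud1, chr8:94386179-94386428, plus strand, GRCm38.p6: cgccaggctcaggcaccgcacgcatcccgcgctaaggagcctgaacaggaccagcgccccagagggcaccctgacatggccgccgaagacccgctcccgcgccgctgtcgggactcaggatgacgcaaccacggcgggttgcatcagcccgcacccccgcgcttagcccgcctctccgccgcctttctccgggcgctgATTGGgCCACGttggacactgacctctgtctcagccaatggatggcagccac
In GENCODE M21 (GRCm38), Hspa5 spans chromosome 2 from 34771970 to 34777547 on the plus strand, so that its first annotated base there lies inside the RefSeq window. Herpud1 spans chromosome 8 from 94386438 to 94395377 on the plus strand. On the minus strand lie Hsp90b1 (chromosome 10, 86690209 to 86705509), Calr (chromosome 8, 84841850 to 84846934), Pdia4 (chromosome 6, 47796141 to 47813430) and Dnajb9 (chromosome 12, 44205559 to 44210326). Sdf2l1 (chromosome 16, 17130138 to 17132383) and Manf (chromosome 9, 106838312 to 106891979) are also on the minus strand. Creld2 (chromosome 15, 88819646 to 88826683) and Xbp1 (chromosome 11, 5520659 to 5525893) are on the plus strand. The RefSeq windows of Hsp90b1 and Calr also overlap the GENCODE gene in part. That of Dnajb9 (44210069 to 44210318) lies wholly inside it.

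The libraries held 22.26 to 29.93 M (mega) estimated counts, on average 26.04 ± 2.09 M in I/R + ML264, 27.51 ± 2.11 M in I/R and 26.09 ± 2.65 M in Sham (SD, n = 4). Values are given as counts per 1000000 of the library (CPM), scaled by the TMM factors of edgeR. At these depths 3 counts stand for 0.1002 to 0.1348 CPM, which covers counting error only. The least abundant member, Sdf2l1, had 16.65 to 56 estimated counts per library. All 7 cardiomyocyte markers were detected, with a summed level of 23740 to 27820 CPM in I/R + ML264, 24300 to 27510 CPM in I/R and 22220 to 25690 CPM in Sham. Libraries within both injured groups differed in the Y-linked gene Ddx3y, and the Sham libraries did not (38.79 to 44.79 CPM). It was near the floor in 4 libraries, namely I/R + ML264 libraries 1 (0.1064 CPM) and 2 (0.4842 CPM) and I/R libraries 1 (0.3296 CPM) and 4 (0.2621 CPM), against 38.79 to 51.97 CPM in the other 8 libraries. Both contrasts against Sham are therefore unbalanced in Ddx3y. Arntl, a core clock gene, was at 11.13 CPM in I/R library 1 and at 10.39 and 15.32 CPM in Sham libraries 2 and 3, against 1.048 to 3.257 CPM in the other 9.

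Per kilobase of the longest coding transcript, the members differed widely in level. Hsp90b1 stood highest with a mean of 149.1 CPM per kilobase over the 12 libraries, followed by Hspa5 with 124.4, and the library ranges of these genes overlapped (127 to 176.9 and 87.37 to 146.4). Calr followed with 45.58 CPM per kilobase. Herpud1 (14.51) and Xbp1 (9.135) came next, with overlapping library ranges (6.586 to 24.13 and 6.884 to 11.18). Pdia4 (4.325) and Dnajb9 (3.611) had overlapping library ranges. So did Manf (2.186), Creld2 (1.845) and Sdf2l1 (1.177), the lowest of the family. The highest library was 3.76 times the lowest for Sdf2l1, the scarcest member, and 3.66 times for Herpud1, the fourth most abundant, but 1.39 times for Hsp90b1 and 1.32 times for Dnajb9.

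**Figure D1:**
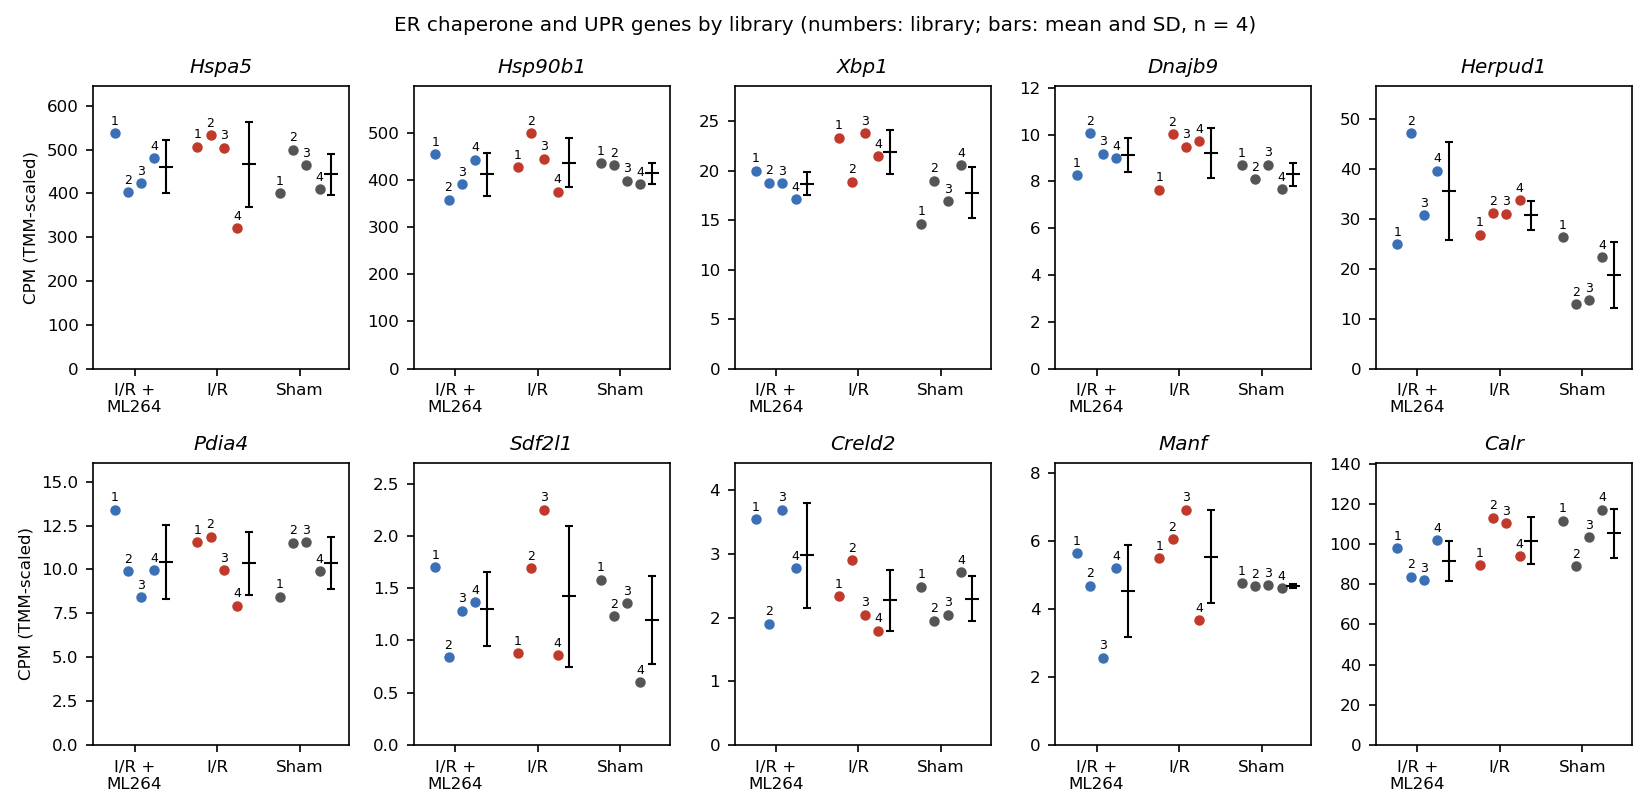
Level of each of the 10 genes in CPM (TMM-scaled, linear axis from 0) in every library, in the order I/R + ML264, I/R and Sham. Points are libraries with their number, and the bar beside each group gives the mean and SD (n = 4). Herpud1 sits at 26.81 to 33.62 CPM in I/R, above the 12.86 to 26.24 CPM of Sham, whereas the groups overlap for the other 9 genes.

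Under edgeR's quasi-likelihood test with Benjamini-Hochberg adjustment over all 15952 genes, 0 of the 10 members were called in any of the 3 comparisons. The injury contrast (I/R against Sham) called 7.75% of all genes, 4.58% higher and 3.17% lower. The inhibitor contrast (I/R + ML264 against I/R) called 0.0502%, with 0.0125% higher and 0.0376% lower. The combined contrast (I/R + ML264 against Sham), which compares injured hearts under the inhibitor with sham hearts, called 0.288%, with 0.257% higher and 0.0313% lower. A gene not called there was not shown to be at the Sham level. The split of the injury contrast depended on the scaling, with 620 genes higher and 676 lower under upper-quartile factors, against 731 and 505 under TMM. At an unadjusted p under 0.05, 2 of 10 members passed in the injury contrast (Herpud1 and Xbp1, against 23.2% of all genes), 0 in the inhibitor contrast (10.4%) and 1 in the combined contrast (Herpud1, 13%). With DESeq2 the members called numbered 1, 0 and 1 in the same order, each time Herpud1, against 11.2%, 0.948% and 2.32% of the 15933 genes with an adjusted p. The groups did not overlap in CPM for 1 member in the injury contrast (Herpud1, against 15.8% of all genes), and for 0 in the other comparisons (5.62% and 7.37%). The median log2 fold change of the members was 0.114 in the injury contrast, -0.051 in the inhibitor contrast and 0.062 in the combined contrast, beside 0.0019, 0 and 0.0018 over all genes tested. These comparisons share libraries, so their values are not independent. In bulk tissue, fewer cells of a type and less RNA per cell cannot be told apart.

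The central chaperone of the ER is Hspa5 (BiP, also called GRP78), an Hsp70-type protein that binds unfolded chains and holds the UPR sensors inactive. Hspa5 was at 537.5, 402.4, 422.6 and 480.2 CPM in I/R + ML264 libraries, at 506.7, 532.8, 504.3 and 320.8 CPM in I/R libraries, and at 400.5, 499.6, 464.5 and 410.0 CPM in Sham libraries. The groups overlapped, and I/R library 4 was the lowest of all 12. The log2 fold change was 0.07 ± 0.15 (SE) in the injury contrast, with a 95% interval of -0.24 to 0.39 and an edgeR adjusted p = 0.821. In the inhibitor contrast it was -0.02 (-0.33 to 0.30, adjusted p = 0.981). Without I/R library 4, the log2 fold change of Hspa5 in the injury contrast was 0.21, with adjusted p = 0.253. Over all 12 libraries left out in turn, the adjusted p ran from 0.253 to 0.998. With only the libraries above 10 CPM in Ddx3y, the injury contrast gave Hspa5 0.23 ± 0.10 (edgeR unadjusted p = 0.0417, adjusted p = 0.253). That subset keeps only I/R libraries 2 and 3 of the I/R group, and so also leaves out library 4.

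Hsp90b1, the Hsp90-type chaperone of the ER lumen (GRP94), varied less. It was at 455.4, 358.7, 391.3 and 443.6 CPM in I/R + ML264 libraries, at 427.3, 499.7, 445.4 and 375.5 CPM in I/R libraries, and at 436.2, 431.5, 399.0 and 391.6 CPM in Sham libraries. All 3 groups overlapped. Its log2 fold change was 0.08 ± 0.09 (SE) in the injury contrast (interval -0.12 to 0.27), and -0.08 ± 0.09 in the inhibitor contrast (-0.28 to 0.11). The interval in the injury contrast stands for a fold of 0.922 to 1.21.

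Calr, encoding the lectin chaperone and calcium-binding protein calreticulin, was at 97.94, 83.87, 82.06 and 101.9 CPM in I/R + ML264 libraries, at 89.53, 113.2, 110.4 and 94.12 CPM in I/R libraries, and at 111.7, 88.95, 103.5 and 117.2 CPM in Sham libraries. The means were 91.4 ± 9.94 CPM in I/R + ML264, 101.8 ± 11.8 CPM in I/R and 105.3 ± 12.3 CPM in Sham (SD, n = 4). Every group overlapped every other. In the combined contrast Calr had a log2 fold change of -0.20 ± 0.10 (SE, interval -0.42 to 0.01, edgeR adjusted p = 0.420), and in the injury contrast of -0.05 ± 0.10.

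Pdia4 (ERp72), a protein disulfide isomerase, had group means that differed by far less than the spread between libraries. It was at 13.41, 9.911, 8.412 and 9.966 CPM in I/R + ML264 libraries, at 11.57, 11.87, 9.975 and 7.937 CPM in I/R libraries, and at 8.459, 11.52, 11.57 and 9.90 CPM in Sham libraries. The 3 means lay between 10.3 and 10.4 CPM, and the 3 fitted log2 fold changes between -0.005 and 0.013.

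Dnajb9 (ERdj4) is a J-domain partner of BiP. It was at 8.265, 10.07, 9.191 and 8.996 CPM in I/R + ML264 libraries, at 7.653, 10.03, 9.492 and 9.734 CPM in I/R libraries, and at 8.686, 8.112, 8.719 and 7.68 CPM in Sham libraries. I/R libraries 2, 3 and 4 lay above every Sham library, and I/R library 1 lay below them all. The log2 fold change was 0.15 ± 0.12 (SE, interval -0.11 to 0.41) in the injury contrast and -0.01 ± 0.12 in the inhibitor contrast. Of the 31-base words of Dnajb9, 10.8% also occur in the predicted gene Gm6568, so part of its counts could be divided between the 2.

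Sdf2l1, a soluble ER protein that works with J-domain partners of BiP, was at 1.703, 0.8393, 1.285 and 1.367 CPM in I/R + ML264 libraries, at 0.8789, 1.691, 2.252 and 0.8611 CPM in I/R libraries, and at 1.583, 1.231, 1.355 and 0.5989 CPM in Sham libraries. The groups overlapped throughout. Its interval in the injury contrast, -0.52 to 1.03 on the log2 scale around 0.25, still holds a change of either sign.

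Creld2 and Manf encode ER proteins that can be secreted under ER stress. Creld2, a protein with disulfide isomerase activity, was at 3.547, 1.905, 3.70 and 2.778 CPM in I/R + ML264 libraries, at 2.344, 2.909, 2.051 and 1.797 CPM in I/R libraries, and at 2.488, 1.956, 2.049 and 2.713 CPM in Sham libraries. I/R + ML264 libraries 1, 3 and 4 lay above the highest Sham library, and library 2 lay below every Sham library. The log2 fold change was 0.39 ± 0.23 (SE, interval -0.11 to 0.88, edgeR adjusted p = 0.592) in the inhibitor contrast and -0.02 ± 0.24 in the injury contrast. Manf, a neurotrophic factor that binds BiP, was at 5.64, 4.681, 2.57 and 5.204 CPM in I/R + ML264 libraries, at 5.493, 6.054, 6.918 and 3.669 CPM in I/R libraries, and at 4.75, 4.672, 4.69 and 4.615 CPM in Sham libraries. The Sham libraries were nearly equal, with an SD of 0.0555 CPM, while the SD was 1.36 CPM in I/R + ML264 and 1.37 CPM in I/R (n = 4 each). Manf had a log2 fold change of -0.29 ± 0.22 (SE) in the inhibitor contrast and 0.24 ± 0.22 in the injury contrast, both with intervals that hold 0.

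Herpud1 (Herp) encodes an ER membrane protein of ER-associated degradation, and was the member with the largest fold changes against Sham. Creld2, Manf and Xbp1 had larger ones than Herpud1 in the inhibitor contrast. It was at 24.94, 47.10, 30.65 and 39.60 CPM in I/R + ML264 libraries, at 26.81, 31.06, 31.01 and 33.62 CPM in I/R libraries, and at 26.24, 12.86, 13.65 and 22.30 CPM in Sham libraries. Every I/R library lay above every Sham library, by a margin of less than 1 CPM between I/R library 1 and Sham library 1. I/R + ML264 library 1 lay below Sham library 1, so those groups overlapped.

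The means of Herpud1 were 35.57 ± 9.77 CPM in I/R + ML264, 30.62 ± 2.82 CPM in I/R and 18.76 ± 6.57 CPM in Sham (SD, n = 4). The log2 fold change was 0.71 ± 0.25 (SE) in the injury contrast, a fold of 1.64 with a 95% interval of 1.12 to 2.39. The unadjusted p was 0.0159 and the edgeR adjusted p = 0.113, so the difference missed the threshold of 0.05. In the combined contrast it was 0.93 ± 0.25, a fold of 1.90 (1.30 to 2.78), with an unadjusted p of 0.00343 and an edgeR adjusted p = 0.153. In the inhibitor contrast it was 0.22 ± 0.25 (interval -0.32 to 0.76, adjusted p = 0.810). The call depended on the tool and on 1 library. DESeq2 called Herpud1 in the injury contrast (0.70 ± 0.22, adjusted p = 0.0190) and in the combined contrast (0.92 ± 0.22, adjusted p = 0.00483). Without Sham library 1, the edgeR value in the injury contrast was 0.91 with adjusted p = 0.0432.

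The 2 Sham libraries lowest in Herpud1, 2 and 3, were those with Arntl at 10.39 and 15.32 CPM, and the lowest I/R library, 1, had Arntl at 11.13 CPM. Within I/R + ML264, Arntl was at 3.086, 2.486, 1.246 and 1.808 CPM in libraries 1 to 4. Herpud1 there was at 24.94, 47.1, 30.65 and 39.6 CPM. With log2 Arntl as a covariate, Herpud1 had a log2 fold change of 0.49 ± 0.23 in the injury contrast (adjusted p = 0.272). In the combined contrast it was 0.67 ± 0.24 (adjusted p = 0.339). Arntl itself averaged 2.157 CPM in I/R + ML264, 3.843 CPM in I/R and 7.965 CPM in Sham (SD 0.8005, 4.878 and 5.998). The covariate thus overlaps with the groups, and the part of Arntl in the result was not tested. The 7 neutrophil markers summed to 4.824 to 19.14 CPM in I/R + ML264, 7.544 to 17.07 CPM in I/R and 4.651 to 7.156 CPM in Sham, where S100a8 and Ly6g were at 0 in every library. Of these markers 4 passed the filter, and Clec4d was called higher in I/R than in Sham. The part of neutrophils in the result was not tested.

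Xbp1, the transcription factor gene whose mRNA IRE1 splices, was at 20.01, 18.79, 18.73 and 17.15 CPM in I/R + ML264 libraries, at 23.36, 18.91, 23.81 and 21.45 CPM in I/R libraries, and at 14.66, 19.01, 16.95 and 20.54 CPM in Sham libraries. I/R libraries 1, 3 and 4 exceeded every Sham library, and I/R library 2 did not. The means were 18.67 ± 1.17 CPM in I/R + ML264, 21.88 ± 2.23 CPM in I/R and 17.79 ± 2.56 CPM in Sham (SD, n = 4). The log2 fold change was 0.30 ± 0.11 (SE, interval 0.06 to 0.54) in the injury contrast, with an unadjusted p of 0.0179 and an edgeR adjusted p = 0.122. In the inhibitor contrast it was -0.23 ± 0.11 (interval -0.47 to 0.01, adjusted p = 0.502), and in the combined contrast 0.07 ± 0.11.

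**Figure D2:**
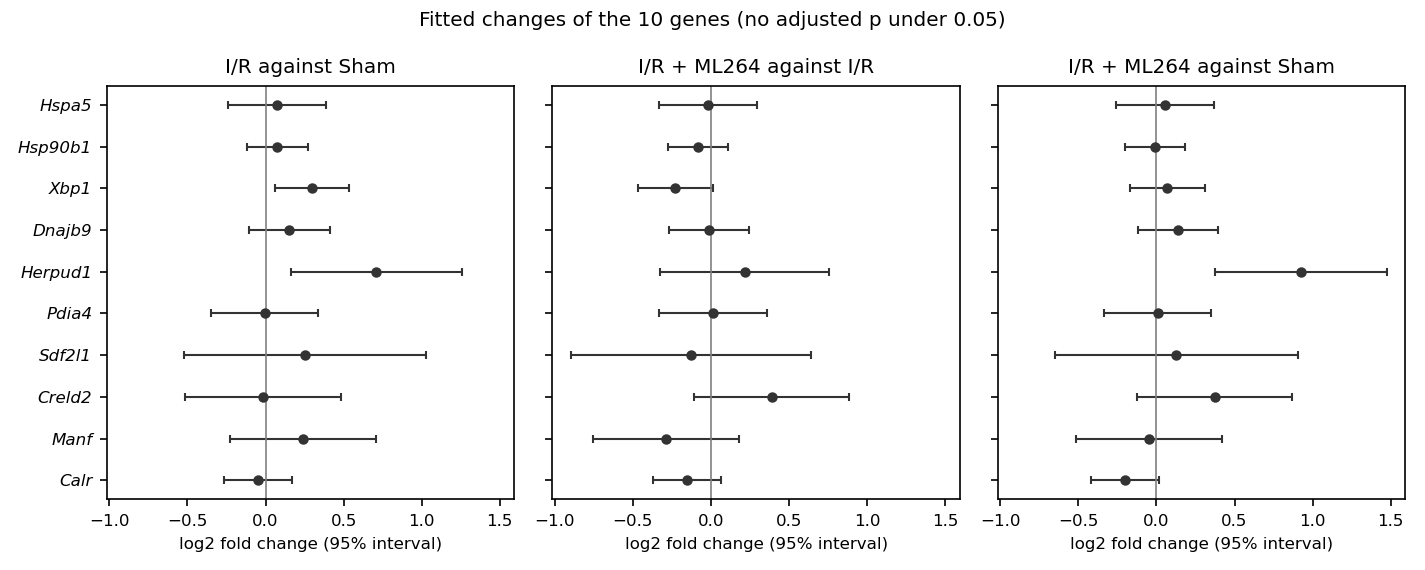
Fitted log2 fold changes of the 10 genes with 95% intervals, for I/R against Sham (left), I/R + ML264 against I/R (middle) and I/R + ML264 against Sham (right), with 0 as the vertical line. The intervals of Herpud1 and Xbp1 in the left panel and of Herpud1 in the right panel lie above 0, and Sdf2l1 has the widest intervals.

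Because a p that misses the threshold does not show that levels were alike, the widths of the intervals matter. In the injury contrast, the 95% interval lay within 1 log2 unit of 0 for 8 of 10 members, and within 0.5 log2 units for 5. The corresponding numbers were 10 and 6 in the inhibitor contrast, and 9 and 6 in the combined contrast. Over all genes tested, 70.6%, 75.5% and 74.4% had intervals within 1 log2 unit in the same 3 comparisons. In each contrast Hsp90b1 had the narrowest interval of the 10, and Sdf2l1 the widest, followed by Herpud1.

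The deposited values per transcript could not be read as splice forms. Among 4176 genes with at least 3 transcripts and 200 estimated counts in every library, 0 had the same leading transcript in all 12 libraries, and the median number of different leading transcripts was 6. Members with several transcripts showed the same: each of the 6 transcripts of Hspa5 led in some library, holding 94.5% to 97.4% of the gene's counts, and each of the 4 of Xbp1 did so with 69.1% to 78.5%. The sum over a gene's transcripts does not depend on how its counts are divided among them, and only such sums are used elsewhere. Among the Xbp1 transcripts, the one annotated as a retained intron had the highest total. Its share of Xbp1 counts was 13.3%, 5.2%, 16.2% and 75.4% in I/R + ML264 libraries, 5.3%, 3.1%, 70.2% and 16.0% in I/R libraries, and 76.0%, 3.3%, 4.1% and 76.5% in Sham libraries. In each group at least 1 library stood above 70% and the others near or below 16%. The difference in mean share was 3.8 percentage points in the inhibitor contrast (exact permutation p = 0.657), -16.3 in the injury contrast (p = 0.6) and -12.5 in the combined contrast (p = 0.914). The smallest p that a two-sided exact permutation of 4 against 4 libraries allows is 0.0286. After adjustment all 3 exact permutation tests had p = 0.914. Because the leading transcript changes from library to library within each group, these tests cannot show whether intron retention differed or not. Splicing of Xbp1 by IRE1 was not analysed here.

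**Figure D3:**
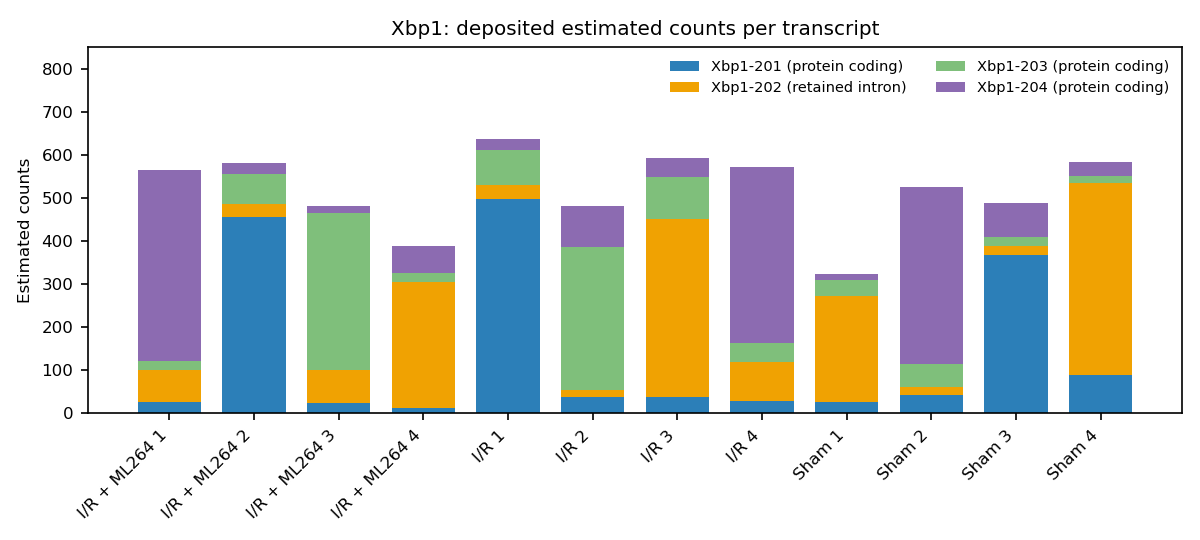
Deposited estimated counts of the 4 Xbp1 transcripts (stacked bars, linear axis from 0) in each library, from I/R + ML264 through I/R to Sham. The transcript that holds most of the counts changes from library to library within each group, with the retained-intron transcript above 70% in I/R + ML264 library 4, I/R library 3 and Sham libraries 1 and 4.

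Whether members moved together from library to library was asked of the 45 pairs over the 12 libraries, on log2 CPM, with permutation p-values from 100000 resamples adjusted over the pairs. By Pearson's r 1 pair passed an adjusted p of 0.05, and by Spearman's rho 3 did. Hspa5 and Pdia4 had r = 0.84 (permutation p = 0.00039, adjusted 0.0175) and rho = 0.90 (p = 0.00014, adjusted 0.0063). Without Sham library 1 and I/R library 4, the 2 farthest from the median of Hspa5, r was 0.74, and with the group means removed it was 0.85. Over the 8 libraries with Ddx3y above 10 CPM it was 0.77. I/R + ML264 library 1 was the highest of the 12 in both genes and I/R library 4 the lowest in both.

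Hsp90b1 was ordered over the libraries much like Sdf2l1 (rho = 0.85, adjusted permutation p = 0.0148, against r = 0.70, adjusted 0.18) and Manf (rho = 0.83, adjusted permutation p = 0.0201, against r = 0.63, adjusted 0.246). Without I/R library 2 and I/R + ML264 library 2, r was 0.67 and 0.73 for these pairs. Hspa5 and Hsp90b1 themselves had r = 0.76 (adjusted permutation p = 0.0925) and rho = 0.76 (adjusted 0.0541), which miss the threshold. Without Sham library 1 and I/R library 4 the r of this pair was 0.91, and with the group means removed it was 0.79. Herpud1 had r = -0.40 against Pdia4 (permutation p = 0.197) and r = -0.27 against Hspa5 (p = 0.4). With the group means removed, r was -0.63 and -0.57 for these pairs, values that were not tested. Over the 8 libraries with Ddx3y above 10 CPM, r was -0.48 and 0.0. The libraries share the same scaling, and depth and tissue makeup were not separated from these relations.

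**Figure D4:**
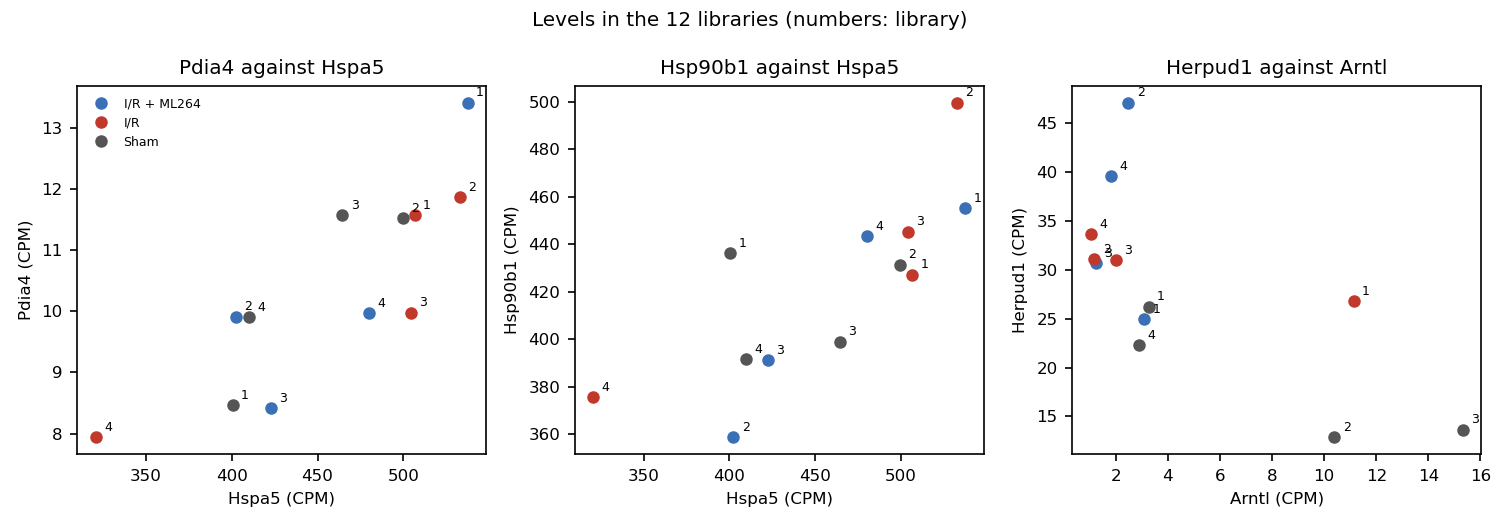
Pdia4 against Hspa5 (left), Hsp90b1 against Hspa5 (middle) and Herpud1 against Arntl (right), in CPM on linear axes, with 1 numbered point per library coloured by group. Hspa5 and Pdia4 run from I/R library 4 at the low end to I/R + ML264 library 1 at the high end, and the 3 libraries with Arntl above 10 CPM hold Herpud1 at 12.86, 13.65 and 26.81 CPM.

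The wider machinery was read from 6 lists of ER genes with 78 other genes, of which 73 were tested. In the injury contrast 3 were called higher and 1 lower, in the inhibitor contrast 0, and in the combined contrast 1 higher. Over all genes tested, the shares called by edgeR were 7.75%, 0.0502% and 0.288% in the same order. At an unadjusted p under 0.05 the numbers were 19, 7 and 8 of 73, against 23.2%, 10.4% and 13% of all genes. DESeq2 called 8, 1 and 1 of them, against 11.2%, 0.948% and 2.32% of all genes. Among 17 other chaperone and translocation genes and 14 genes of ER-associated degradation, 0 were called in any comparison, and 2 and 7 of them had an unadjusted p under 0.05 in the injury contrast. Their median log2 fold changes in the injury contrast were 0.06 and 0.09. DESeq2 called 0 of these chaperone genes, and of the degradation genes Herpud2 and Ube2j1 higher in the injury contrast and Ubxn4 lower in the inhibitor contrast. Of 11 disulfide isomerases and oxidases 1 was called, Txndc11, and of 10 calcium-binding proteins of the ER and sarcoplasmic reticulum 0 were, by edgeR or by DESeq2, with 1 at an unadjusted p under 0.05 in the injury contrast.

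Of the 12 tested genes of the PERK and ATF4 arm, 2 were called in the injury contrast, against 7.75% of all genes. Ppp1r15a (GADD34), which directs dephosphorylation of the translation factor eIF2α, was at 10.71, 11.46, 11.53 and 10.85 CPM in I/R + ML264 libraries, at 10.77, 16.32, 15.49 and 16.02 CPM in I/R libraries, and at 5.655, 3.73, 4.273 and 4.862 CPM in Sham libraries. Every library of both injured groups lay above every Sham library. Its log2 fold change was 1.66 ± 0.15 (SE, edgeR adjusted p = 4.03e-05) in the injury contrast and 1.27 ± 0.15 (adjusted p = 0.00189) in the combined contrast. In the inhibitor contrast it was -0.39 ± 0.15 (adjusted p = 0.346). Atf4, the transcription factor downstream of PERK, averaged 10.85 ± 1.18 CPM in I/R + ML264, 13.5 ± 0.898 CPM in I/R and 9.19 ± 2.37 CPM in Sham (SD, n = 4). It was called in the injury contrast at 0.56 ± 0.16 (adjusted p = 0.0375). That call was lost without Sham library 2 or 3, without any 1 of the 4 I/R libraries, and in 4 of 11 other settings, with adjusted p over all settings of 0.0141 to 0.168. Atf3 and Ddit3 had the highest and the lowest log2 fold change of the arm in the injury contrast, at 2.99 ± 0.94 (adjusted p = 0.0892) and -0.69 ± 0.49 (adjusted p = 0.454), and were named after their values were seen. DESeq2 called Atf3 higher in the injury contrast.

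Txndc11, a thioredoxin-domain protein of the ER, was at 22.42, 16.08, 17.92 and 17.29 CPM in I/R + ML264 libraries, at 19.99, 19.58, 22.68 and 20.18 CPM in I/R libraries, and at 13.07, 13.47, 15.25 and 14.34 CPM in Sham libraries. The libraries of both injured groups lay above every Sham library. It rose in the injury contrast by 0.55 ± 0.11 on the log2 scale (edgeR adjusted p = 0.00741), and was 0.39 ± 0.11 in the combined contrast (adjusted p = 0.141). Mbtps1, the site-1 protease that cuts ATF6, averaged 17.9 ± 1.21 CPM in I/R + ML264, 16.3 ± 1.13 CPM in I/R and 20.4 ± 1.54 CPM in Sham. Its log2 fold change in the injury contrast was -0.32 ± 0.10 (edgeR adjusted p = 0.0494). The call was lost in 6 of 11 other settings and when any of 9 of the 12 libraries was left out, with adjusted p from 0.0164 to 0.176.

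None of the 3 sensor genes was called by edgeR, and DESeq2 called Eif2ak3 lower in the injury contrast. Ern1, encoding IRE1, averaged 10.9 ± 1.34 CPM in I/R + ML264, 10.34 ± 0.672 CPM in I/R and 12.79 ± 2.44 CPM in Sham (SD, n = 4), with a log2 fold change of -0.31 ± 0.14 (SE) and an edgeR adjusted p = 0.189 in the injury contrast. Atf6 averaged 172.3 ± 17.4 CPM in I/R + ML264, 163.9 ± 8.51 CPM in I/R and 154.2 ± 4.65 CPM in Sham, and its log2 fold change was 0.09 ± 0.08 in the injury contrast. Eif2ak3, encoding PERK, was at 5.073, 4.261, 6.192 and 5.115 CPM in I/R + ML264 libraries, at 2.673, 3.971, 4.585 and 3.257 CPM in I/R libraries, and at 5.021, 5.976, 6.01 and 4.756 CPM in Sham libraries. Every I/R library lay below every Sham library. Its log2 fold change was -0.59 ± 0.18 (SE, edgeR adjusted p = 0.0581) in the injury contrast and 0.51 ± 0.18 (adjusted p = 0.327) in the inhibitor contrast. Eif2ak3 passed the threshold in the injury contrast with DESeq2 (-0.59 ± 0.19, adjusted p = 0.0254), with upper-quartile factors (adjusted p = 0.0416), without I/R library 3 (-0.72, adjusted p = 0.0405) and without I/R + ML264 library 2 (adjusted p = 0.0445). In the 8 libraries with Ddx3y above 10 CPM, which hold only libraries 2 and 3 of I/R, it was -0.35 ± 0.19 (adjusted p = 0.378).

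**Figure D5:**
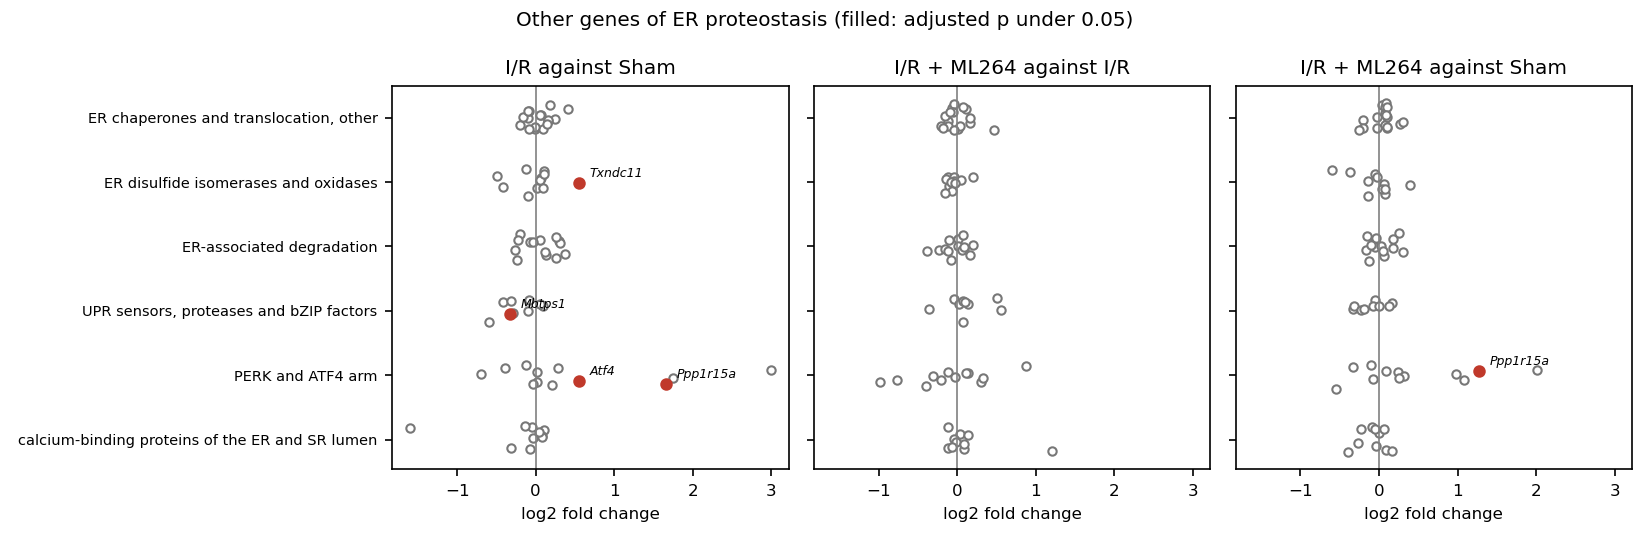
Log2 fold changes of the 73 tested genes in 6 lists of ER proteostasis genes, 1 row of points per list, for I/R against Sham (left), I/R + ML264 against I/R (middle) and I/R + ML264 against Sham (right). Filled points are genes with an edgeR adjusted p under 0.05: Txndc11, Atf4, Ppp1r15a and Mbtps1 in the left panel and Ppp1r15a in the right panel. Vertical scatter within a row only separates the points.

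Markers of plasma and B cells, which are rich in ER chaperones, were low. All 7 together summed to 2.337 to 3.712 CPM in I/R + ML264, 2.38 to 3.861 CPM in I/R and 3.619 to 4.863 CPM in Sham, with Tnfrsf17 at 0 in every I/R library. Fibroblast markers summed to 375.1 to 419.8 CPM in I/R + ML264, 381.9 to 431.4 CPM in I/R and 359.8 to 432.7 CPM in Sham, and endothelial markers to 562.4 to 676.5, 582.3 to 622.7 and 601.9 to 652.2 CPM in the same order. Macrophage markers summed to 91.87 to 119.2 CPM in I/R + ML264, 92.98 to 117.5 CPM in I/R and 97.31 to 167.2 CPM in Sham. In the injury contrast, where edgeR called 7.75% of all genes, the endothelial marker Flt1 was called higher and Kdr and Tek lower. The macrophage marker Adgre1 was called lower and the cardiomyocyte marker Tnnt2 higher. Of the fibroblast and the plasma and B cell markers 0 were called. The part of cell makeup in the levels of the members was not tested.

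To find genes whose pattern was most like that of the family, the log2 CPM of each member was centred on its mean over the libraries and averaged over the 10 members. This mean level was highest in I/R libraries 2 and 3 (0.23 and 0.21 log2 units) and lowest in I/R library 4 (-0.18), so the spread within I/R covered that of all 12 libraries. Among 6598 other genes averaging 3 or more on the log2 CPM scale, the 5 with the highest Pearson correlation to it over the 12 libraries were Fancc (0.93), Fbxo38 (0.85), Gimap6 (0.85), Anxa11 (0.84) and Wasl (0.84). These are the highest of many values, over libraries that share their scaling, and are given as a description. Fancc averaged 11.01 ± 2.70 CPM in I/R + ML264, 13.88 ± 5.22 CPM in I/R and 8.77 ± 1.94 CPM in Sham (SD, n = 4). None of the 5 was called in any comparison.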

How the data were processed

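The authors deposited 1 table of estimated counts per transcript for the 12 libraries, without normalization or pooling. The submitters' processing notes name FastQC and kallisto with GRCm38 (mm10). Tool versions and the annotation release were not given in the sources used here. Per the labels' protocols, Nextera XT libraries of total RNA were sequenced in paired reads, a kit that does not mark strand. Because kallisto splits reads over similar transcripts, words of 31 bases shared with other genes were counted for the members. Of the transcripts, 94.7% matched GENCODE M21 by version.

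Estimated counts were summed per gene symbol and rounded. The filterByExpr function (minimum of 10 counts) kept 15952 genes and removed 9601 with counts. One edgeR 4.0.16 fit in R 4.3.3 (TMM, quasi-likelihood F-test, robust spread, no covariates) covered all 12 libraries, with a biological coefficient of variation of 0.205. A gene is called at an adjusted p under 0.05 (Benjamini-Hochberg, over all genes tested). The procedure was tested on simulated data. The changes set there were larger than those fitted for any member, so that test does not bear on changes of their size. Named are the 10 members, called genes of the lists (up to 4 per list and comparison), 3 sensor genes, the 5 nearest genes, Ddx3y and Arntl. The members and lists were chosen with earlier results of these data known. The alternatives were DESeq2 1.42.0, other scalings, filters, spreads and covariates, subsets of libraries, a replicate block and leaving out each library.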

Additional observations from a re-analysis of the deposited data

Results flagged for a closer look

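Hspa5 was at 320.8 CPM in I/R library 4, against 504.3 to 532.8 CPM in the other 3 I/R libraries. The gap from library 4 to its nearest neighbour took 0.866 of the range of the group, above Dixon's 95% critical value for 4 samples. Of 30 groups of 4 libraries tested (10 genes in 3 groups), 1 was picked out, and chance picks out about 1 in 20. In the same library Pdia4 (7.937 CPM) and Creld2 (1.797 CPM) were also the lowest of all 12, while Herpud1 (33.62 CPM) was the highest of the I/R group. Ddx3y was at 0.2621 CPM there. Whether these values are connected was not tested.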

How the results depend on the processing

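The count of 0 members called held under every alternative except DESeq2 (1 in the injury contrast and 1 in the combined contrast) and leave-one-out (0 to 1 in the injury contrast, with 1 without Sham replicate 1), each time Herpud1. Over the 12 leave-one-out fits its log2 fold change ranged from 0.56 to 0.91 in the injury contrast and from 0.76 to 1.13 in the combined contrast. That of Xbp1 in the injury contrast ranged from 0.22 to 0.37. Genes called in the injury contrast, 1236 as reported, numbered 546 with a Ddx3y covariate, 636 with an Arntl covariate, 553 in libraries with Ddx3y above 10 CPM and 659 to 1485 in leave-one-out. In the inhibitor contrast, 8 became 151 with DESeq2, 22 unfiltered, 2 with a non-robust spread, 2 in the Ddx3y libraries and 0 to 85 in leave-one-out. In the combined contrast, 46 became 370 with DESeq2, 78 unfiltered, 72 with a non-robust spread, 27 with only the 2 groups, 27 in the Ddx3y libraries, 12 with either covariate and 9 to 101 in leave-one-out. After the group mean of each gene was subtracted from log2 CPM, same-numbered libraries correlated at -0.11 to 0.097. No pairing by number was seen, though a small one is not excluded. With the replicate block 0 members were called, and 1009, 1 and 19 genes in the injury, inhibitor and combined contrasts. With only the libraries above 10 CPM in Ddx3y, every member had a positive log2 fold change in the injury contrast, and 0 were called. These values ran from 0.08 (Pdia4) to 0.73 (Herpud1 and Sdf2l1). They rest on I/R libraries 2 and 3 alone against all 4 Sham libraries. Those 2 I/R libraries had the highest mean level of the members of all 12 (0.23 and 0.21 log2 units). I/R library 4, left out here, had the lowest (-0.18). Fold changes near 0 changed sign. In the injury contrast these were Creld2 (0.07 with the Ddx3y covariate, 0.11 in the Ddx3y libraries), Calr (0.01 and 0.09 likewise) and Pdia4 (0.19 with Arntl, 0.08 in the Ddx3y libraries). In the inhibitor contrast they were Hspa5 (0.00 with upper-quartile factors, the block or Arntl), Dnajb9 (0.01, upper-quartile) and Pdia4 (-0.00 with Ddx3y, -0.25 in those libraries). In the combined contrast they were Pdia4 (-0.02 upper-quartile, -0.01 block, -0.05 Ddx3y, -0.18 those libraries), Hsp90b1 (0.05 and 0.01 with Ddx3y and those libraries), Eif2ak3 (0.10 and 0.06 likewise) and Manf (0.07, Arntl). Leave-one-out ranges that cross 0 were, in the injury contrast, Pdia4 -0.09 to 0.10, Sdf2l1 -0.06 to 0.43, Creld2 -0.15 to 0.08 and Calr -0.13 to 0.01. The inhibitor contrast had Hspa5 -0.16 to 0.05, Dnajb9 -0.10 to 0.03, Pdia4 -0.13 to 0.10, Sdf2l1 -0.31 to 0.18 and Ern1 -0.01 to 0.13. The combined contrast had Hspa5 -0.03 to 0.12, Hsp90b1 -0.06 to 0.05, Xbp1 -0.01 to 0.14, Pdia4 -0.14 to 0.10, Sdf2l1 -0.10 to 0.29, Manf -0.17 to 0.14 and Eif2ak3 -0.18 to 0.01. The largest share of any Xbp1 transcript, added after seeing the data, differed by 0.4 percentage points in the combined contrast. For the retained-intron transcript, leave-one-out gave differences in share of -31.8 to -4.1 points in the injury contrast, -12.1 to 19.3 in the inhibitor contrast and -28.4 to -0.3 in the combined contrast. As the leading transcript changes between libraries, these differences cannot be read as intron retention. The causes were not tested. Sdf2l1, Creld2 and Manf have the fewest counts.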
